A study of Drosophila melanogaster with 2 samples.

Results

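Heat shock proteins are molecular chaperones, which bind unfolded proteins and keep them from aggregating or help them to fold. The 6 genes described here, Hsp27, Hsp83, Hsc70-4, Hsp26, Hsp23 and Hsp22, were chosen by name, with earlier results of these data known, from the 13968 protein-coding genes of the Drosophila melanogaster chromosome arms. Every region in a gene body or within 5000 bp of it was read from all lists, which gave 47 of the 130105 ranked regions of both replicates. Because the choice was made with the peaks at these genes in view, their counts and signals are a description and carry no test.

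Small heat shock proteins hold unfolded proteins without using ATP, while HSP70 and HSP90 proteins use ATP to fold or mature their clients. On heat shock, the heat shock factor Hsf binds heat shock elements, inverted repeats of the letters GAA, upstream of inducible genes. In Drosophila such promoters also carry GAGA elements, bound by GAGA factor, and a TATA box. Several of these genes are also expressed during normal development without heat shock. Dan (distal antenna) is a nuclear protein with a Pipsqueak-type DNA-binding domain, known for its part in antenna and eye development and in neuroblasts.

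The study measured where Dan fused to eGFP lay on chromatin by ChIP-seq, in which DNA bound to a protein is precipitated and sequenced. The only group was whole embryos aged 0 to 8 h of a transgenic dan-eGFP strain, with 2 biological replicates that share 1 donor strain per the labels. Both were precipitated with an antibody against GFP, and no heat shock or other treatment is labelled. The labels do not give the promoter that drives the fusion, the number of embryos or whether the untagged dan gene was present, and no read depth is given, so depth is unknown. With whole embryos, binding in fewer cells and weaker binding per cell cannot be told apart.

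Each list gives every region a signal, as the authors' caller set it against a control, and a score made from the IDR. The IDR measures how well a region's rank repeats between 2 sets of calls. The conservative list held 1170 peaks at an IDR of at most 0.01, with a median signal of 104. The ranked list of both replicates held 130105 regions with a median signal of 20.3, and regions in it that missed the threshold are called weaker regions. The quartiles of the deposited −log10 q-value over that list were low, at 0.109 and 0.126. A weaker region is therefore a listed place and is not shown to be bound by Dan-eGFP. The scale of the signal is not stated, so signals were ranked within a list and not compared as levels between lists. Coordinates are on dm6.

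Sequences at the 3 conservative peaks and at 2 neighbouring promoters are shown so that places where Dan-eGFP was called can be compared with heat shock units. They are reference sequence of the RefSeq Release 6 assembly, written 5′ to 3′ on the strand of the gene. The first 4 are the 250 bases before the first annotated start, and the last is the 201 bases around the peak summit in the first Hsp83 intron. Capitals mark the strings GAANNTTC and TTCNNGAA, and a TATAAA that begins 20 to 35 bp before a start. Each of the first kinds of string is a pair of inverted GAA and is called a heat shock unit here.
Hsp27, chr3L:9383813-9384062, plus strand: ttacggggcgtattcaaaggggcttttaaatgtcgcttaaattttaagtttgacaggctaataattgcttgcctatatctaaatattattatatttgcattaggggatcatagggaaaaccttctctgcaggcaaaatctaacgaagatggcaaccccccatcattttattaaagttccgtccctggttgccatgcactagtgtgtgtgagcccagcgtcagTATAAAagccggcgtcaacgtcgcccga
Hsp23, chr3L:9381632-9381881, plus strand: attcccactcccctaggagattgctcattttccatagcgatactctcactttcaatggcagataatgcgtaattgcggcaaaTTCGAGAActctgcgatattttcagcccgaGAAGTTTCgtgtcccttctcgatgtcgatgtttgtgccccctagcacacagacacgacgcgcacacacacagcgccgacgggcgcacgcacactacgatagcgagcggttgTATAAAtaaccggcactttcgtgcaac
Hsp26, chr3L:9377428-9377677, minus strand: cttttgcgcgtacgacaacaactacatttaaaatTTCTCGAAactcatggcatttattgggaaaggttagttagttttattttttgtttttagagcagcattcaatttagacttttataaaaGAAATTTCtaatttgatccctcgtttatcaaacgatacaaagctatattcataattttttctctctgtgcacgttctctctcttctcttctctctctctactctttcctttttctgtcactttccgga
Hsc70-4, chr3R:15242437-15242686, plus strand: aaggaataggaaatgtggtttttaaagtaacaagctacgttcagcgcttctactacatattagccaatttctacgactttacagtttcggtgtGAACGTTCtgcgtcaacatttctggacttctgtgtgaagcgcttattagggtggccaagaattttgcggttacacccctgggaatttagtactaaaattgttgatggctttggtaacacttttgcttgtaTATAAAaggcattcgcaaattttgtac
Hsp83 intron, chr3L:3194187-3194387, plus strand: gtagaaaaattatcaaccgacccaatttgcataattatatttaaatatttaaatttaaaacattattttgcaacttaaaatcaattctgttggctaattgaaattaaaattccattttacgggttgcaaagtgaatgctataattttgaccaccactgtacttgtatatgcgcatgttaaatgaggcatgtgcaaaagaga
The Hsp27 stretch held a TATA box and no heat shock unit. The Hsp23 and Hsp26 stretches each held 2 units, and the Hsc70-4 stretch held 1. The TATA box of Hsp26 lies before its second annotated start, downstream of the stretch shown. The intronic Hsp83 window held neither a unit nor a TATA box and was rich in A and T.

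Conservative peaks lay at 4 of the 6 genes, against 2073 of 13968 protein-coding genes (14.8%) counted in the same way. Since the genes were chosen with these peaks in view, nothing is read from that difference. The 4 genes, Hsp27, Hsp23, Hsp83 and Hsc70-4, were reached through 3 distinct peaks, because Hsp27 and Hsp23 share 1. Hsp26 and Hsp22 had none. The other thresholded list of both replicates, with 1396 regions, held the same 3 peaks with the same signals.

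Of the small heat shock genes, Hsp27 carried the strongest of these peaks. Hsp27 (FBgn0001226, chr3L:9384063-9385694, plus strand) encodes a small heat shock protein found in the nucleus. The peak, at chr3L:9383815-9383987, was 173 bp wide and lay between genes, with its summit 156 bp upstream of the Hsp27 start. Its signal of 289 and IDR of 0.000109 ranked it 86th of the 1170 conservative peaks (percentile 92.7).

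Both replicates held this region near the top of their own ranked lists. In replicate 1 its signal was 148, rank 124 of 109692 regions. In replicate 2 it was 137, rank 93 of 111665 regions. The summits were 28 bp apart, and the region was in the thresholded list of each replicate. The interval was narrower than most, since 889 (82.5%) of the 1078 conservative peaks on the arms had the maximum width of 350 bp.

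Hsp23 (FBgn0001224, chr3L:9381882-9382765, plus strand) encodes a cytosolic small heat shock protein. It was counted through the same Hsp27 peak, whose summit lay 2025 bp downstream of the Hsp23 start and past the end of the gene. No ranked region covered the 500 bp upstream of Hsp23. Its own strongest region lay in the coding exon at chr3L:9382122-9382471, with a signal of 31.7 in the list of both replicates and 23.1 in replicate 1. Replicate 2 had no region there.

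Hsp26 (FBgn0001225, chr3L:9376418-9377427, minus strand), another cytosolic small heat shock protein gene, had weaker regions alone. The strongest, in its coding exon at chr3L:9376781-9377130, had a signal of 44.1 and an IDR of 0.0873. Its signal was 22.4 in replicate 1 (percentile 89.0) and 27.1 in replicate 2 (percentile 93.5). In the list of both replicates it stood at percentile 92.9 by signal and at 21.7 by −log10 q, and the reason for that difference was not tested. This was the region with the lowest IDR among the 44 weaker ones at the 6 genes, whereas the Hsc70-4 peak, at an IDR of 0.00313, was the conservative peak nearest the threshold.

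A second Hsp26 region, chr3L:9377464-9377813, lay upstream with its summit 212 bp from the start. Its signal was 37.9 with both replicates, 18.6 in replicate 1 and 24.9 in replicate 2. It covered 4 of the 5 heat shock units in the 500 bp upstream of the second Hsp26 start, and did not pass the threshold in any list.

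Hsp22 (FBgn0001223, chr3L:9372931-9374964, plus strand) encodes a mitochondrial small heat shock protein. No ranked region of the list of both replicates lay in its body. The gene fell in a stretch of 26565 bp without such a region, chr3L:9350216-9376780. The arms held 353 stretches at least as long, 17.4 Mb in all. The ranked list of replicate 2 held 2 regions in the body of Hsp22, and that of replicate 1 held none. The 2 signals were 26.2 (chr3L:9373343-9373642, percentile 92.5) and 14.3 (percentile 56.0). The annotated body of CG4456 (chr3L:9372722-9374964) covers that of Hsp22, so these regions cannot be given to either gene by position. Of all protein-coding genes, 24.5% had no ranked region in the body. In the list of both replicates, Hsp22 and Hsp26 shared the same strongest region, that in the Hsp26 exon. In replicate 1 their strongest signals were 22.4 and 23.1, from different regions.

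**Figure D1:**
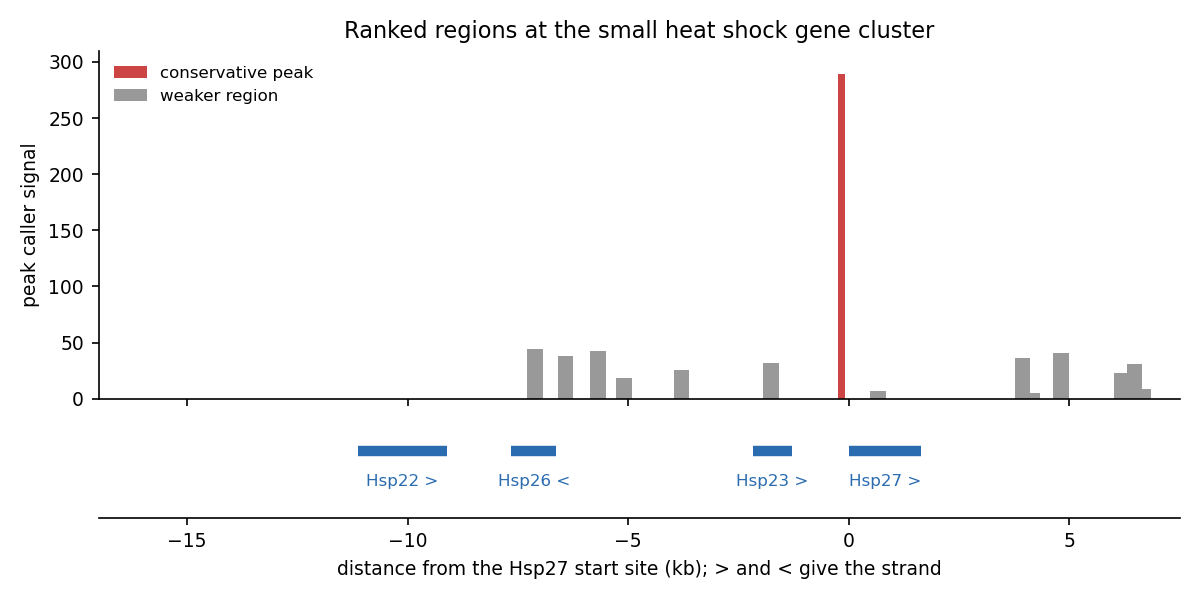
Ranked regions of both replicates around 4 small heat shock genes on arm 3L, with distance from the Hsp27 start in kb on the x axis and the peak caller's signal on the y axis. Red marks the conservative peak (signal 289), grey the weaker regions, and blue bars the gene bodies; the single red bar stands just before Hsp27 and no bar stands over Hsp22.

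Hsp83 (FBgn0001233, chr3L:3192969-3197059, plus strand) encodes the cytosolic HSP90 of Drosophila, which matures kinases and nuclear receptors and is abundant without heat shock. Its conservative peak, chr3L:3194112-3194461, lay inside the first intron. The summit was 1071 bp downstream of the nearer of the 2 annotated starts, and CG14966 was the gene with the nearest start on the other side, 3344 bp away. The signal was 142 and the IDR 0.000845, rank 342 of 1170 (percentile 70.9).

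In replicate 1 the Hsp83 intron region had a signal of 90.5, rank 346. In replicate 2 it had a signal of 56.6, rank 493. It passed each replicate's own threshold, at percentile 70.2 of the thresholded regions of replicate 1 and 31.5 of those of replicate 2. The summits were 12 bp apart.

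A weaker region lay over the second annotated Hsp83 start. That region, chr3L:3192982-3193331, had a signal of 25.7 with both replicates and 27.1 in replicate 1, and replicate 2 held none. The body of Hsp83 held 8 ranked regions in all, the peak and 7 weaker ones with signals from 2.05 to 32.5.

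Hsc70-4 (FBgn0266599, chr3R:15242687-15246614, plus strand) encodes the main constitutive cytosolic HSP70 cognate, which among other tasks strips clathrin from vesicles. Its peak, chr3R:15242326-15242675, lay between the divergent starts of Hsc70-4 and tefu, the gene of the ATM kinase. The summit was 186 bp from the Hsc70-4 start and 265 bp from the tefu start, so the peak cannot be given to either gene by position. Of the 1078 conservative peaks on the arms, 141 (13.1%) lay between divergent starts that were both within 500 bp.

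The Hsc70-4 peak had a signal of 88.9, rank 732 of 1170 (percentile 37.5). Its signal was 47.2 in replicate 1, with an IDR of 0.164, and 42.5 in replicate 2, with an IDR of 0.023. Those values ranked 1074th and 1017th in the replicates' ranked lists. The region was in neither replicate's thresholded list, although its summits were 13 bp apart. It therefore rests on the comparison of both replicates.

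**Figure D2:**
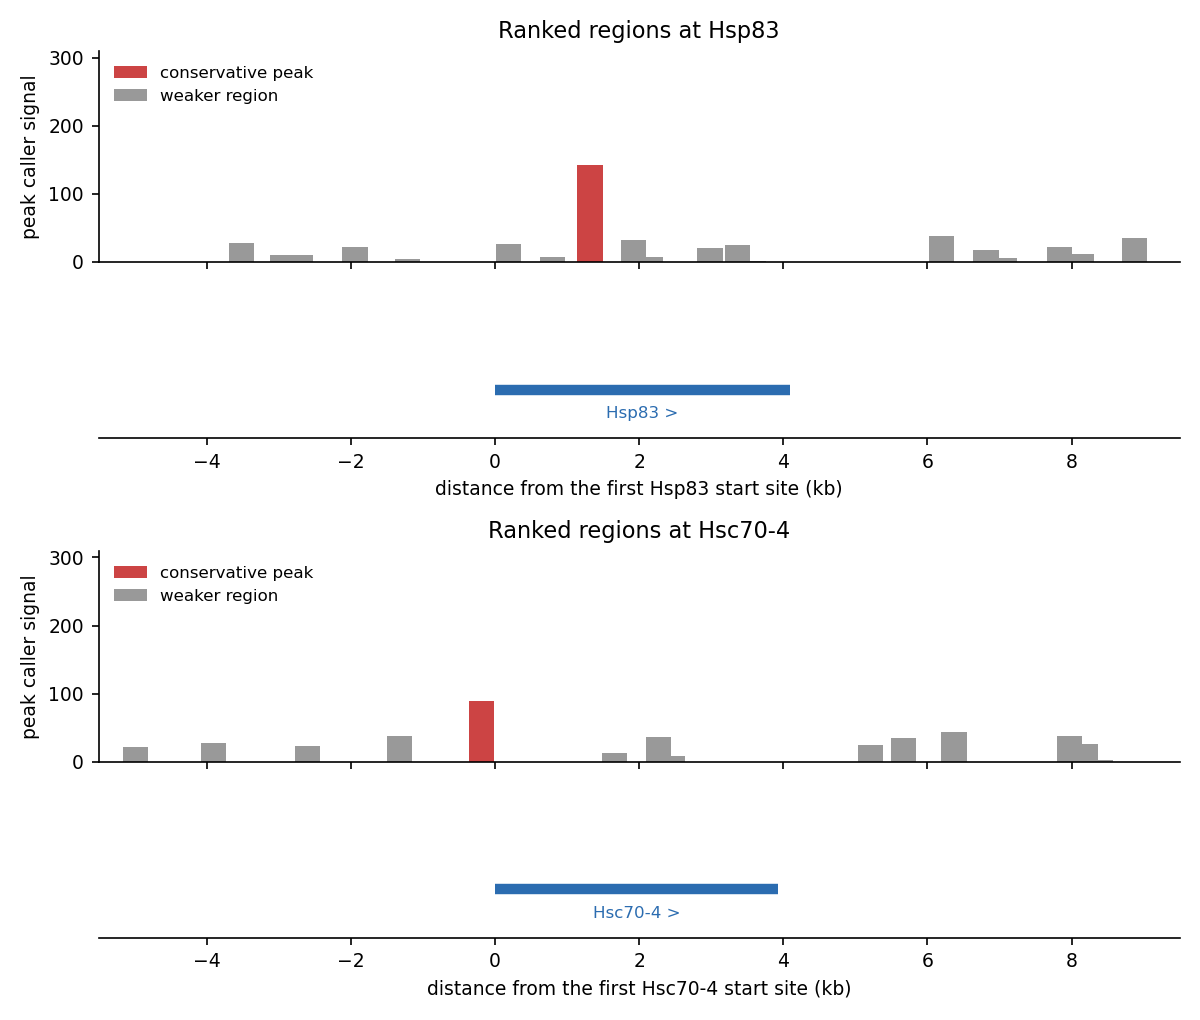
Ranked regions of both replicates at Hsp83 (top) and Hsc70-4 (bottom), with distance from the first annotated start in kb on the x axis and the peak caller's signal on the y axis. Red marks the conservative peaks (signals 142 and 88.9), grey the weaker regions, and blue bars the gene bodies; the Hsp83 peak lies inside the gene and the Hsc70-4 peak just before it.

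Across all protein-coding genes, with genes lacking a region counted as having no signal, the strongest region within 5000 bp had a median signal of 46.4. Hsp27 and Hsp23 stood at percentile 98.0 of the genes, Hsp83 at 93.7 and Hsc70-4 at 88.6. Hsp26 and Hsp22 both stood at 43.3, just under the middle gene. The order was the same in each replicate down to Hsc70-4, at percentiles 97.6, 94.2 and 86.1 in replicate 1 and 98.2, 92.8 and 87.5 in replicate 2. The places of Hsp26 and Hsp22 were 37.1 and 34.0 in replicate 1, and both 50.4 in replicate 2.

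**Figure D3:**
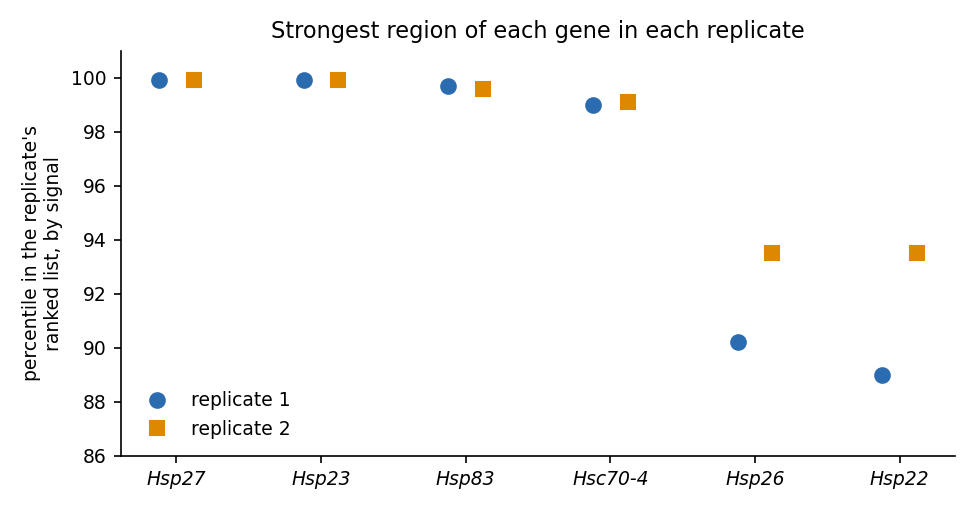
Percentile of the strongest region within 5000 bp of each gene among all ranked regions of that replicate, by signal, with circles for replicate 1 and squares for replicate 2; the y axis starts at 86. The genes with a conservative peak lie at 99.0 or above in both replicates, while Hsp26 and Hsp22 lie between 89.0 and 93.5 by signal.

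The number of ranked regions did not follow the strength of the strongest one. In the list of both replicates, Hsp83 had 19 regions, Hsc70-4 14, Hsp27 11, Hsp23 8, Hsp26 6 and Hsp22 4, against a median of 14 over all genes. For the same genes in turn, the list of replicate 1 held 15, 14, 11, 8, 7 and 4 regions. That of replicate 2 held 13, 15, 6, 7, 10 and 13, so the order did not hold there and Hsp22 equalled Hsp83. Per kb of gene and flanks, Hsp83 had 1.35 and Hsp22 0.332 in the list of both replicates, against a median of 1.11. Neighbouring genes share regions, and adjoining weaker regions often matched the same region of a replicate.

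Of the 47 regions, 33 had a counterpart in both replicates, 10 in replicate 1 alone, 3 in replicate 2 alone and 1 in neither. The same count over all ranked regions was not made, so nothing is read from these numbers. The replicates' own ranked lists held 43 and 46 regions at these genes. Of these, 3 in replicate 1 and 11 in replicate 2, with signals up to 26.2, had no region in the list of both. The 3 conservative peaks were all among the 33. The 44 weaker regions had signals from 2.05 to 44.1, with a median of 24.0. Their highest signal was thus below the 88.9 of the weakest conservative peak at these genes.

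Base composition differed between the conservative peaks and the weaker regions at these genes. Within 100 bp of the summit, GC content was 38.3% at the Hsp27 peak, 35.8% at the Hsc70-4 peak and 28.4% at the Hsp83 peak. The weaker regions at the 6 genes had a median of 53.7% and a range from 30.8% to 62.2%, and 33 of the 47 regions lay in exons. Over the arms, the median was 36.8% for conservative peaks and 47.8% for the 125494 weaker regions. The part of base composition in the signal was not tested.

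Heat shock units were next compared with the peaks. The motifs searched, on both strands, were the units GAANNTTC and TTCNNGAA, the GAGA strings GAGAG and GAGAGA, the TATA string TATAAA, and CAGTG, which earlier results of these data had named. Matches may overlap, and every GAGAGA also holds GAGAG. A match is a description of the letters and does not show that a factor binds there.

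Within 100 bp of the summit, the Hsp27 peak held none of these strings. The Hsp83 peak held CAGTG once and none of the others. The Hsc70-4 peak held 1 heat shock unit, GAACGTTC, and neither a GAGA string nor CAGTG. Either unit occurred in 10.1% of all conservative peaks, 8.74% of weaker regions and 15.9% of promoters, taken as 250 bp before to 50 bp after a start. CAGTG occurred in 54.0% of conservative peaks and 35.7% of weaker regions, where windows were 201 bp long, and in 46.1% of promoters. Since earlier results of these data had named CAGTG, nothing is read from that difference.

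All 6 genes had TATAAA beginning 20 to 35 bp before an annotated start, which 1191 genes (8.53%) had. At least 1 heat shock unit lay in a promoter of 5 of the 6 genes, all but Hsp27, against 2786 genes (19.9%). At least 2 units lay in a promoter of Hsp22, Hsp23, Hsp26 and Hsc70-4, against 352 genes (2.52%). The TATA rule was chosen after its values were seen, and genes with more annotated starts had more chances to match.

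Counted from the start that carries the TATA box, the nearest Hsp27 unit began at -338 and GAGAGA at -316 and -271. The Hsp27 peak ran from -248 to -76 and covered none of them. The Hsc70-4 peak ran from -361 to -12 and covered the unit at -157 and the TATA box at -27. Hsp23 had 4 units in the 500 bp upstream, those at -405 and -400 overlapping, and no ranked region there. Hsp22 had 2 units and 7 matches to GAGAGA upstream of its inner start, and no region of the list of both replicates there. The stronger Hsp22 region of replicate 2 reached into the far end of that stretch.

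**Figure D4:**
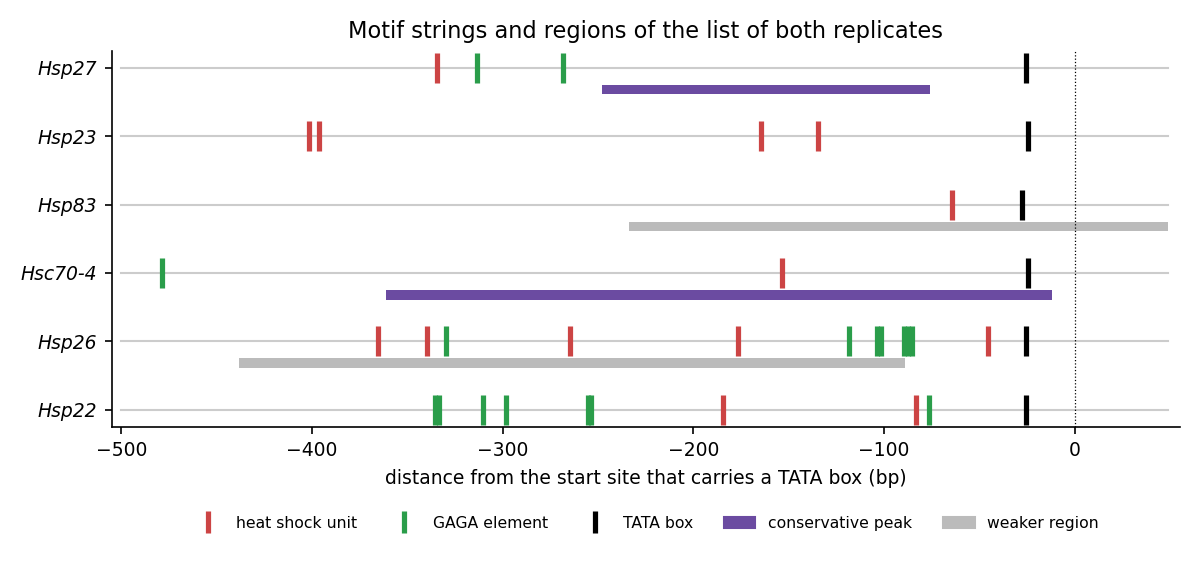
Motif strings and regions of the list of both replicates from 500 bp before to 49 bp after the start that carries a TATA box, 1 row per gene, with distance from that start in bp on the x axis. Red ticks are heat shock units, green ticks GAGAGA, black ticks the TATA box, purple bars conservative peaks and grey bars weaker regions; the Hsp27 peak, from -248 to -76, covers no tick, and Hsp23 and Hsp22 have units and no bar.

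A wider list of 46 other heat shock and chaperone genes was read in the same way, and 4 had a conservative peak (8.70%, against 14.8% of all protein-coding genes). Hsp67Ba, a small heat shock gene of the same cluster, was counted only through the Hsp27 peak, 4373 bp from its own start. Hsc70-5, the mitochondrial HSP70, had a peak 28 bp from its start. Droj2, a DnaJ-type co-chaperone, was counted through a peak in a coding exon of CG9799, 4398 bp from the Droj2 start. The co-chaperone mrj, also of the DnaJ type, had 2 peaks, the stronger of them in its own intron.

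The peak at mrj had a signal of 197, with 135 in replicate 1 and 75.3 in replicate 2, and passed both replicates' own thresholds. The Hsc70-5 peak had a signal of 76.7, with 38.9 and 39.2 in the replicates. The Droj2 peak had a signal of 65.9, with 33.1 and 39.4. Like the Hsc70-4 peak, these 2 were in neither replicate's thresholded list.

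By family, 1 of 12 other HSP70 genes, 1 of 7 other small heat shock genes and 2 of 10 co-chaperone genes had a conservative peak. None of the 12 chaperonin genes, which encode the folding chambers of mitochondria and cytosol, had one. The share of all protein-coding genes was 14.8%. With so few genes in each family, nothing is read from the differences between families. CCT7, a chaperonin gene, did have a region within 5000 bp in the thresholded list of each replicate. Trap1 and Gp93 also lacked a conservative peak. These mitochondrial and endoplasmic reticulum relatives of Hsp83 had strongest signals of 37.7 and 44.1, against 142 at Hsp83. Hsf itself had a strongest signal of 34.5. Of the 46 genes, 37 had a ranked region, and the median strongest signal of those 37 was 44.1. CG4456, Hsp67Bc and CG4461 each had 44.1 through the region in the Hsp26 exon, so that region enters the median more than once. The 46.4 of all protein-coding genes also includes genes without a region, so the medians are not directly comparable.

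The other 9 genes (19.6%) had no ranked region within 5000 bp, against 1373 of all protein-coding genes (9.83%). They were Hsp70Ba, Hsp70Bbb, Hsc70-3, DnaJ-1, STUB1, CCT3, CCT5, CCT6 and CG1416. The 6 copies of the inducible Hsp70 gene, the classic heat shock gene, had no ranked region in the body, as did 24.5% of all protein-coding genes. Within 5000 bp, 4 of the 6 copies had ranked regions, and the strongest, at Hsp70Bc, had a signal of 68.7. The other thresholded list of both replicates held a region within 5000 bp of Hsp70Bc, and the conservative list did not. Between 86.6% and 99.2% of the 50-base words of each copy also occur in another copy, while the 6 genes described here share no such word with each other. The part of this repetition in the missing regions was not tested.

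**Figure D5:**
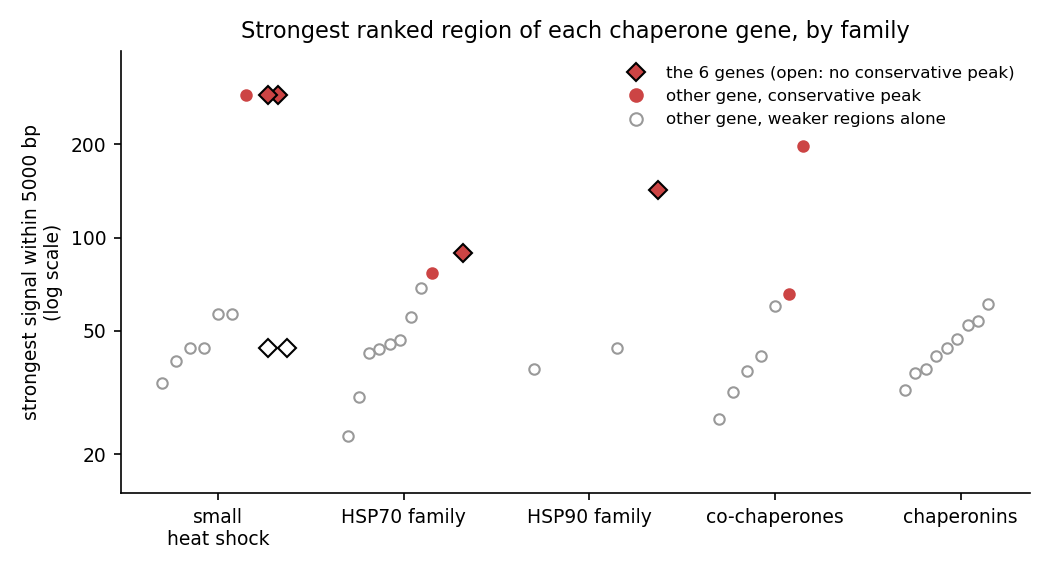
Signal of the strongest ranked region within 5000 bp of each chaperone gene, on a log axis, by family. Diamonds are the 6 genes and circles other genes, filled where there is a conservative peak; Hsf, CG4456, lncRNA:Hsromega and the 9 genes with no ranked region are not drawn. Hsp27 and Hsp23 share 1 peak at 289, as does the filled circle of Hsp67Ba, and most other genes lie near the median of 44.1.

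The genes whose nearest peak was most like each of the 3 peaks were found by the distance between log10 signals over the 2 replicates, among 860 peaks. PolD2 (155 in replicate 1 and 141 in replicate 2), CG10467 (158 and 140) and MFS10 (153 and 145) were nearest to the Hsp27 peak. FoxL1 (90.3 and 55.7), Mhcl (90.3 and 54.2) and CG1142 (86.9 and 55.2) were nearest to the Hsp83 peak. For the Hsc70-4 peak they were bab1 (46.2 and 40.5), dco (44.8 and 42.3) and CG3744 (47.0 and 39.9). Likeness in signal says nothing of shared function or control.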

How the data were processed

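Dan-eGFP ChIP-seq was measured in whole embryos in 2 biological replicates, with chromatin sonicated to 200 to 800 bp per the labels. The authors deposited ranked and thresholded region lists on dm6. Per the sample notes, filtered alignments from each replicate and from a control went into them. Which aligner and caller were used is not given in the sources used here. The deposited signal comes straight from the authors' caller, and its scale is not stated. Deposited scores are log-scaled IDRs capped at 1000. The Hsp27, Hsp83 and Hsc70-4 peaks all reached that cap, at IDRs of 0.000109, 0.000845 and 0.00313. The IDR was therefore taken from a separate deposited value and not from the score. The deposited −log10 q-value was used only as an alternative ranking. Thresholded lists had no score under 830, equal to an IDR of 0.01.

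Genes came from Ensembl release 115 and sequence from RefSeq, both of Release 6, the assembly behind dm6. A region was counted at a gene when it overlapped the body or 5000 bp on either side by at least 1 bp, and replicates' regions were matched by at least 1 bp. Distances ran from the summit to annotated starts. Counting was tested on simulated regions. Python 3.11.15, numpy 2.4.6, pandas 2.3.3 and matplotlib 3.10.9 were used. The members, the lists and the motifs were chosen with earlier results of these data known. All 46 symbols of the wider list were matched, 4 of them through older symbols. The text names the 6 genes, list genes with a conservative peak, the genes flanking each peak and the 3 most alike by signal. Genes with no ranked region, family examples and motif places were chosen after their values were seen. With 1 group there was no test between conditions. Alternatives varied the window, the list, the IDR threshold, the gene rule, the ranking value and each replicate.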

Additional observations from a re-analysis of the deposited data

How the results depend on the processing

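The count of 4 genes with a conservative peak stayed between 3 and 6 under every alternative run. Hsp27 and Hsp83 were counted in all of them. Hsc70-4 was lost at an IDR of at most 0.001 and in each replicate's own thresholded list. Hsp23 was lost with a window of 1000 bp and by the nearest start, and Hsp26 and Hsp22 were gained with 10000 bp. Thresholds of 0.001 and 0.05 and the other choices leave the distinct peaks at 2 or 3. The 4 other chaperone genes became 2 with windows of 1000 or 2000 bp, by the nearest start and at an IDR of 0.001. They became 9 with 10000 bp, 7 with the other thresholded list and 8 at an IDR of 0.05. The other thresholded list added CG14207, Hsc70-1 and Hsp70Bc. In each replicate's own thresholded list they were 3, with CCT7 gained and Droj2 and Hsc70-5 lost. The share of all protein-coding genes, 14.8%, was 7.83% with 1000 bp, 9.77% with 2000 bp and 22.5% with 10000 bp. It was 16.8% with the other thresholded list, 6.53% at an IDR of 0.001, 26.1% at 0.05 and 6.19% by the nearest start. With 1 replicate left out at a time it ran from 8.94% to 14.2%. The alternatives change which regions are admitted or how regions are assigned to genes, and the cause of these moves was not tested. Ranked by −log10 q, the region in the Hsp26 exon stood at percentile 21.7 in place of 92.9. Its value was 0.107, and the quartiles of all ranked regions were close together at 0.109 and 0.126, and the cause of the difference was not tested. No paired analysis was possible because there is only 1 group. Read depth is unknown, so no limit of detection can be given for genes without a region.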
